A study of Homo sapiens with 12 samples.

Results

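The genes of glycolysis and of the hypoxia response were followed in RNA sequencing of 143B cells, a line established from a human osteosarcoma. The set holds 40 of the 56140 gene symbols in each library, taken by symbol: 23 glycolytic enzymes and glucose or lactate transporters, and 17 genes of the hypoxia response outside glycolysis, namely 16 targets of hypoxia-inducible factor (HIF) and HIF1A itself. The 143B cells, labelled wild-type, were kept for 48 h with the solvent DMSO as control, with ceritinib at 1.0 µM, with crenolanib at 1.0 µM, or with both drugs, each at 1.0 µM. Each group had 3 biological replicates, which gives 12 libraries. Ceritinib is a tyrosine kinase inhibitor developed against ALK, with activity against the receptors for IGF1 and insulin, and crenolanib acts on FLT3 and the PDGF receptors. All results come from this 1 cell line in culture at 1 dose and 1 time. The title of the series concerns signalling that single drugs may switch on, and the comparisons ask how glucose metabolism and hypoxia genes moved with each drug, between the drugs, and with both.

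Glycolysis splits glucose into pyruvate in the cytosol. Glucose enters through transporters such as SLC2A1, is trapped by hexokinase, is committed by phosphofructokinase, and leaves as lactate when lactate dehydrogenase reduces pyruvate and monocarboxylate transporters export the product. HIF is a transcription factor with an oxygen-regulated alpha subunit (HIF1A): when oxygen is present, prolyl hydroxylases of the EGLN family mark the alpha subunit for destruction, and when oxygen is low it accumulates and activates many glycolytic genes and further targets for blood vessel growth, pH control, collagen hydroxylation and mitophagy. The level of HIF1A protein is set mainly by this degradation, so the HIF1A mRNA alone does not report HIF activity. Growth factor signalling through PI3K and mTORC1, and the transcription factor MYC, also drive glycolytic genes in tumour cells.

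The promoters of 4 members are shown. BNIP3 had the greatest rise with the combination on the log2(FPKM + 1) scale as deposited, and PGK1 the greatest after a correction described below. The subunit pair LDHA and LDHB went opposite ways. HIF binds DNA at a 5-base core, ACGTG or GCGTG. Capitals mark each match to this core on either strand in the 250 bases before the start site, 5′ to 3′ on the strand of the gene, from RefSeq on GRCh38.p14. Where a match on each strand overlaps, the letters read CACGTG, which is also the E-box bound by MYC and BHLHE40.
BNIP3, chr10:131981924-131982173 (minus strand): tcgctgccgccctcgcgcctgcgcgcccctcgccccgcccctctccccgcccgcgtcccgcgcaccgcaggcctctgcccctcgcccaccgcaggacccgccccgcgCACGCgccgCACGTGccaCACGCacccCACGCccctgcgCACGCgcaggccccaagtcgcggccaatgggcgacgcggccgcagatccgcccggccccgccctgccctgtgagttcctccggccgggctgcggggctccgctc
PGK1, chrX:78103998-78104247 (plus strand): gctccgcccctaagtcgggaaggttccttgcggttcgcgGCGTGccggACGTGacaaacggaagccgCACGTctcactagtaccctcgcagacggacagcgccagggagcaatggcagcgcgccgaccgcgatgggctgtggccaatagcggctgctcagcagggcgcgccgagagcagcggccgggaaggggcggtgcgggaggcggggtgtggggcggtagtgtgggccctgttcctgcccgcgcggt
LDHA, chr11:18394313-18394562 (plus strand): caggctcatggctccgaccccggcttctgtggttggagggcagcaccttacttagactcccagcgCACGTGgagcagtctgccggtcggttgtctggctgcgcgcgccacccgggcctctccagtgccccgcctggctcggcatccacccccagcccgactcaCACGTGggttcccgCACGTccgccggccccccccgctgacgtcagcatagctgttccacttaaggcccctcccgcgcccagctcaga
LDHB, chr12:21657843-21658092 (minus strand): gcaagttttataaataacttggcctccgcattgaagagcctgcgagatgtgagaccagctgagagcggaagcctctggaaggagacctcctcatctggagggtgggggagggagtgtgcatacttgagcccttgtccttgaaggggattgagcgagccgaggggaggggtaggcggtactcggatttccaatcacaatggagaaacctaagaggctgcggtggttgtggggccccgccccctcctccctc
BNIP3 held 6 matches, PGK1 3, LDHA 5 and LDHB 0, with each strand of a CACGTG counted. Matches did not divide the members by direction. SLC2A1, TPI1, PKM and PFKP held 0 and rose with the combination as deposited, and HK2 held 3 and fell. Of the 40 members, 35 were found in the promoter table, and 22 of these (62.9%) held at least 1 match, 12 of 21 glycolytic and 10 of 14 hypoxia genes. In windows of the same length, 59.6% of 8634 promoters of genes tested and 43.2% of all 35116 promoters held a match. The share in the members was thus close to that of the genes tested, and a match is a string of letters, not evidence of binding. SLC2A3, SLC16A1, BNIP3L, NDRG1 and VEGFA had no entry.

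The libraries held an estimated 19.6 to 28.2 M fragments, and 1 fragment in a transcript of 1 kb was worth 0.0355 to 0.0511 FPKM (fragments per kilobase of transcript, scaled to library size). Of 9 osteosarcoma or mesenchymal markers, only VIM (480.1 FPKM) and SPARC (48.2) reached a mean of 1 FPKM in DMSO. The markers COL1A1 (0.785), COL1A2 (0.00295), RUNX2 (0.990), ALPL (0.0714) and BGLAP (0.0208) were below it. SP7 and the mesenchymal gene THY1 were listed at 0 in DMSO. A protocol label names a thymic sample. The 8 thymocyte and leukocyte markers summed to 0.234 to 1.19 FPKM over the 12 libraries, with CD3G at 0 in each, and the 4 thymic epithelium markers to 0.810 to 2.14 FPKM, nearly all of it EPCAM. The difference of the 3 combination libraries from DMSO followed GC content and transcript length, which together took 46.9% of its variance over 11761 genes, against 1.03% for ceritinib and 2.01% for crenolanib. Among genes with a GC content up to 42.2% the median combination difference was -0.82 log2 units, and among those of 56.2% or more it was 0.53. Values for the combination are therefore given as deposited and after removal of this trend ("corrected"), which would also remove a trend that the drugs caused. Fewer cells and less RNA per cell cannot be told apart in such bulk samples. Named pseudogenes summed to at most 5.55% of SLC2A3, 5.29% of TPI1, 3.13% of EGLN1 and 0.512% of any other member beside BNIP3, and reads may be split with them. Whether the counting used strand is not given in the sources used here, and 26 members overlap a gene on the opposite strand. A further limit is that 6 members overlap a coding gene on the same strand, which strand does not separate. These are GPI, PFKFB4, ALDOC, PGK1 (with ATP7A), ENO2 and EGLN3.

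Of the 40 members, 37 reached at least 1 FPKM in at least 3 libraries and were tested, all 23 glycolytic and 14 of 17 hypoxia genes. Differences are on the log2(FPKM + 1) scale, from limma across 11944 genes with Benjamini-Hochberg adjustment, and "rose", "fell" and "changed" mean an adjusted p under 0.05 (n = 3 per group). The 3 members below the filter were CA9, a carbonic anhydrase that is a hallmark of hypoxic tumours, EGLN3, a HIF-induced hydroxylase, and ANKRD37, a HIF target of poorly known function. CA9 was listed at 0 in 11 of 12 libraries and reached at most 0.0786 FPKM. EGLN3 lay between 0.202 and 0.499 FPKM over the 12 libraries and ANKRD37 between 0.152 and 0.642.

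With ceritinib, as deposited, hypoxia genes outside glycolysis fell more often than they rose, and glycolytic genes were mixed. Among the 14 tested hypoxia genes, 8 fell and 2 rose (median -0.15), and among the 23 glycolytic genes 7 fell and 4 rose (median -0.039). Over all genes tested, 16.3% were called lower and 20.3% higher, with a median of 0.013. With each library scaled to TPM the split was 10 lower and 1 higher for the hypoxia genes and 12 and 1 for the glycolytic genes, and with median-of-ratios scaling the glycolytic split was 11 and 2. Scaled to nuclear genes, 6 glycolytic genes were lower and 5 higher, and 7 hypoxia genes were lower and 2 higher. The rescaling moved all genes: of all calls, 55.5% were higher as deposited, 31.0% with TPM, 45.9% with median-of-ratios scaling and 64.2% scaled to nuclear genes. Without DMSO replicate 1, 7 glycolytic genes were called in place of 11. After the GC and length correction, 11 glycolytic genes were lower and 3 higher, and 9 hypoxia genes were lower and 2 higher. Of all calls, 50.5% were then higher. With crenolanib more genes rose than fell: 12 glycolytic genes rose and 3 fell (median 0.14), and 5 hypoxia genes rose and 1 fell (median 0.025), against 13.0% called higher and 13.0% lower over all genes. Median-of-ratios scaling and scaling to nuclear genes each gave 6 hypoxia genes higher and 0 lower, while the higher share of all calls went from 50.1% to 68.3% and 56.8%. Quantile normalization gave 6 higher and 2 lower (51.6% of all calls higher), and the GC and length correction 5 and 2 (53.2%). Both single-drug comparisons share the DMSO libraries. The combination gave far larger differences, described below by the role of each gene.

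**Figure D1:**
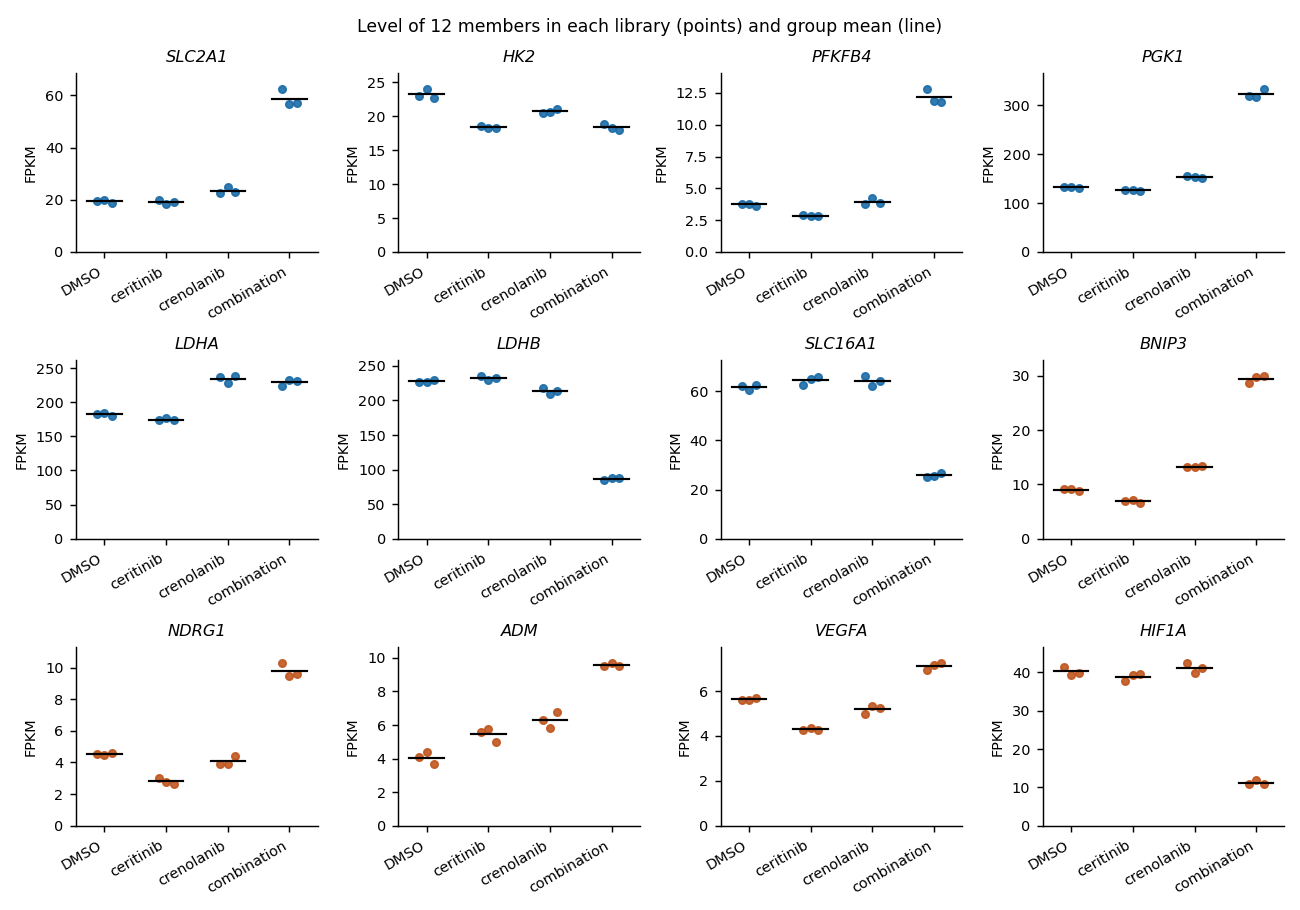
FPKM (linear axis from 0) of 12 members in each of the 12 libraries; points are libraries, lines are group means (n = 3), blue marks glycolytic genes and orange hypoxia genes. The combination libraries lie above all others for SLC2A1, PFKFB4, PGK1, BNIP3, NDRG1, ADM and VEGFA, and below all others for LDHB, SLC16A1 and HIF1A.

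Glucose transporters were higher with the combination. SLC2A1, the main glucose transporter of growing cells, stood at 19.4, 19.8 and 18.9 FPKM in the DMSO libraries, 19.9, 18.2 and 19.1 with ceritinib, 22.5, 25.0 and 23.1 with crenolanib and 62.3, 56.8 and 57.1 with both drugs. All 3 combination libraries lay above the other 9, and crenolanib lay above DMSO without overlap while ceritinib overlapped it. The difference was 1.55 ± 0.047 (SE, adjusted p = 9.03e-12, corrected 1.36) for the combination, 0.26 ± 0.047 (SE, adjusted p = 0.00171) for crenolanib and -0.024 ± 0.047 (SE, adjusted p = 0.726) for ceritinib. SLC2A3, a high-affinity glucose transporter whose reads can be shared with the near-identical copy SLC2A14, was at 3.68, 3.87 and 3.82 FPKM in DMSO, 4.25, 4.30 and 4.22 in the ceritinib libraries, 4.45, 4.21 and 4.13 in the crenolanib libraries and 6.72, 6.35 and 6.64 in the combination libraries. It rose with the combination (0.66, corrected 1.11) and by less with ceritinib (0.13) and crenolanib (0.14). The ceritinib call of SLC2A3 was lost without DMSO replicate 1, with the difference at 0.12 (adjusted p = 0.0521). The crenolanib call of SLC2A3 was lost without any 1 of DMSO replicate 1 and crenolanib replicate 1, with the difference between 0.11 and 0.12 (adjusted p from 0.0634 to 0.0665).

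The hexokinases, which phosphorylate glucose on entry, did not move together. HK2, the inducible hexokinase of many tumours and a HIF target, was at 23.1, 24.0 and 22.7 FPKM in the DMSO libraries, 18.6, 18.3 and 18.3 with ceritinib, 20.5, 20.7 and 21.1 with crenolanib and 18.9, 18.3 and 18.0 with both drugs. All 9 treated libraries lay below the 3 DMSO libraries. Its differences were -0.32 ± 0.029 (SE, adjusted p = 5.13e-06) with ceritinib, -0.16 with crenolanib and -0.32 with the combination (corrected -0.12). HK1, the widely expressed hexokinase, was at 54.4, 53.4 and 54.8 FPKM in DMSO, 46.6, 47.2 and 47.3 in the ceritinib libraries, 53.1, 53.4 and 53.2 in the crenolanib libraries and 75.4, 74.4 and 76.7 in the combination libraries. HK1 fell with ceritinib (-0.20), was not called with crenolanib (-0.025) and rose with the combination (0.47, corrected 0.42). GPI, which converts glucose 6-phosphate to fructose 6-phosphate, was at 30.7, 31.0 and 29.4 FPKM in the DMSO libraries, 35.1, 34.1 and 33.8 with ceritinib, 34.3, 34.2 and 33.8 with crenolanib and 54.7, 53.1 and 51.4 with both drugs. GPI rose in all 3 comparisons with DMSO (0.17, 0.16 and 0.78 in the order ceritinib, crenolanib and combination).

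Phosphofructokinase commits sugar to glycolysis, and its 3 subunit genes differed. PFKL, the liver-type subunit, stood at 9.43, 9.60 and 9.72 FPKM in DMSO, 10.7, 9.79 and 10.1 in the ceritinib libraries, 10.2, 11.9 and 11.2 in the crenolanib libraries and 32.8, 29.7 and 30.4 in the combination libraries. The 3 combination libraries were about 3.23 times the DMSO mean, a difference of 1.59 ± 0.053 (SE, adjusted p = 2.01e-11, corrected 1.25). The rise of PFKL with crenolanib was small (0.19). The crenolanib call of PFKL was lost without any 1 of DMSO replicates 1 and 2 and crenolanib replicates 2 and 3, with the difference between 0.14 and 0.19 (adjusted p from 0.0508 to 0.0792). PFKP, the platelet type and the most abundant of the 3 here, was at 50.7, 49.3 and 47.4 FPKM in the DMSO libraries, 51.9, 52.7 and 49.8 with ceritinib, 50.6, 52.2 and 52.0 with crenolanib and 91.4, 87.4 and 88.5 with both drugs. It overlapped DMSO with each single drug and rose with the combination (0.85, corrected 0.41). PFKM, the muscle type, lay between 12.7 and 16.1 FPKM over all 12 libraries, fell with crenolanib (-0.18), and rose slightly with ceritinib (0.088) and the combination (0.092); the latter sign turned on the TPM scale (-0.058) and when libraries were scaled to nuclear genes (-0.12). The ceritinib call of PFKM was lost without any 1 of DMSO replicates 1 and 3 and ceritinib replicates 1 and 3, with the difference between 0.076 and 0.086 (adjusted p from 0.0759 to 0.0978). As a share of the summed FPKM of the 3 genes, PFKL went from 13.1 ± 0.456% in DMSO to 22.8 ± 0.518% with the combination, PFKM from 20.1 ± 0.552% to 11.6 ± 0.159%, and PFKP from 66.9 ± 0.972% to 65.6 ± 0.377% (SD, n = 3).

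PFKFB3 and PFKFB4 make fructose 2,6-bisphosphate, the activator of phosphofructokinase, and are HIF targets. PFKFB3 was at 11.3, 11.5 and 11.8 FPKM in DMSO, 10.5, 11.1 and 10.6 in the ceritinib libraries, 12.1, 13.0 and 11.9 in the crenolanib libraries and 16.8, 16.6 and 16.9 in the combination libraries. Only the combination moved it past the test among the comparisons with DMSO (0.51, corrected 0.35), with -0.093 ± 0.037 (SE, adjusted p = 0.0655) for ceritinib, which passed after the correction (-0.093, adjusted p = 0.044). PFKFB4 was at 3.79, 3.78 and 3.63 FPKM in the DMSO libraries, 2.91, 2.84 and 2.82 with ceritinib, 3.80, 4.22 and 3.87 with crenolanib and 12.8, 11.9 and 11.8 with both drugs. It lay below DMSO in every ceritinib library (-0.30), was not called with crenolanib (0.068), and was about 3.25 times the DMSO mean with the combination (1.47 ± 0.042 SE, adjusted p = 5.51e-12, corrected 1.17).

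The aldolases split the 6-carbon sugar. ALDOA, the abundant form, was at 258, 249 and 252 FPKM in DMSO, 268, 255 and 255 in the ceritinib libraries, 288, 319.9 and 299.8 in the crenolanib libraries and 741, 683 and 678 in the combination libraries. It rose with crenolanib (0.26) and the combination (1.46 ± 0.042 SE, adjusted p = 5.94e-12, corrected 1.16), and its ceritinib libraries overlapped DMSO. ALDOC, the scarce brain-type form and a HIF target, was at 3.70, 3.36 and 3.36 FPKM in the DMSO libraries, 2.68, 2.80 and 2.71 with ceritinib, 4.01, 4.42 and 3.85 with crenolanib and 12.4, 11.2 and 10.2 with both drugs. ALDOC fell with ceritinib (-0.26), rose with crenolanib (0.19) and rose with the combination (1.45, corrected 0.95). The crenolanib call of ALDOC was lost without any 1 of DMSO replicates 2 and 3, crenolanib replicates 1 and 2, ceritinib replicates 1, 2 and 3 and combination replicate 2, with the difference between 0.14 and 0.20 (adjusted p from 0.0595 to 0.166). TPI1, triose phosphate isomerase, was at 261, 255 and 261 FPKM in DMSO, 251, 246 and 247 in the ceritinib libraries, 281, 299 and 289 in the crenolanib libraries and 643, 639 and 629 in the combination libraries. TPI1 rose with crenolanib (0.16) and the combination (1.30, corrected 0.74). With ceritinib it was at -0.061, not called as deposited but called after the correction (-0.077, adjusted p = 0.0111).

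The enzymes of the pay-off phase, which yield ATP and NADH, all rose with the combination as deposited. GAPDH, the most abundant member, was at 1739, 1650.2 and 1716 FPKM in the DMSO libraries, 1676, 1656 and 1635 with ceritinib, 1692, 1799.7 and 1703 with crenolanib and 2696, 2720.1 and 2566 with both drugs. Its combination libraries lay above all others, 0.64 above DMSO, but after the correction the difference was 0.039 and was not called (adjusted p = 0.26); both single drugs overlapped DMSO. PGK1, phosphoglycerate kinase, was at 133, 133 and 131 FPKM in DMSO, 127, 127 and 125 in the ceritinib libraries, 155, 154 and 152 in the crenolanib libraries and 319, 317 and 333 in the combination libraries. PGK1 rose with crenolanib (0.21) and with the combination (1.28 ± 0.023 SE, adjusted p = 2.6e-13). Its combination difference became larger after the correction (1.94), the largest among the members. The correction took the GC (43.3%) and length (4887 bases) of the longest annotated PGK1 transcript, which may not be the one expressed. The small fall of PGK1 with ceritinib (-0.070) was not stable. The ceritinib call of PGK1 was lost without any 1 of DMSO replicates 1, 2 and 3 and ceritinib replicates 1, 2 and 3, with the difference between -0.076 and -0.062 (adjusted p from 0.0544 to 0.11).

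PGAM1, phosphoglycerate mutase, was at 215, 219 and 209.8 FPKM in the DMSO libraries, 224, 231 and 224 with ceritinib, 249.7, 254 and 247 with crenolanib and 347, 337 and 339 with both drugs. It rose with crenolanib (0.22) and the combination (0.66, corrected 0.36), and by 0.074 with ceritinib, a call that was lost after the correction (0.054). The ceritinib call of PGAM1 was lost without any 1 of DMSO replicates 1 and 3 and ceritinib replicates 1, 2 and 3, with the difference between 0.057 and 0.083 (adjusted p from 0.0522 to 0.141). ENO1, the main enolase, was at 690.2, 708 and 664 FPKM in DMSO, 627, 616 and 607 in the ceritinib libraries, 790.4, 804 and 794 in the crenolanib libraries and 1371, 1320.5 and 1386 in the combination libraries. ENO1 fell with ceritinib (-0.16), rose with crenolanib (0.21) and rose with the combination (0.98, corrected 0.77), so its 4 groups did not overlap. ENO2, the neuronal enolase and a HIF target, was at 7.26, 7.27 and 6.63 FPKM in the DMSO libraries, 5.78, 5.66 and 5.48 with ceritinib, 7.16, 7.61 and 7.55 with crenolanib and 15.7, 15.0 and 16.3 with both drugs. It fell with ceritinib (-0.28), overlapped DMSO with crenolanib, and rose with the combination (1.05, corrected 0.75). PKM, pyruvate kinase, was at 347, 342 and 339 FPKM in DMSO, 331, 328 and 328 in the ceritinib libraries, 394, 416 and 402 in the crenolanib libraries and 705, 705 and 689 in the combination libraries. It rose with crenolanib (0.24) and the combination (1.03, corrected 0.84). With ceritinib PKM was at -0.058, not called as deposited but called after the correction (-0.077, adjusted p = 0.00694). The values do not separate its M1 and M2 forms.

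The 19 glycolytic enzymes together took 1.70 ± 0.0245% of a library's summed FPKM in DMSO, 1.56 ± 0.0213% with ceritinib, 1.83 ± 0.0259% with crenolanib and 2.68 ± 0.0384% with the combination (SD, n = 3). Genes encoded in mitochondrial DNA took 22.9% to 25.2% of the sum under DMSO, 28.8% to 29.8% under ceritinib, 25.6% to 26.3% under crenolanib and 19.1% to 21.7% under both drugs. Without those genes in the sum the shares were 2.25 ± 0.0316%, 2.21 ± 0.0140%, 2.47 ± 0.0452% and 3.36 ± 0.0518% in the same order of groups, so the ceritinib libraries (2.20% to 2.23%) then overlapped the DMSO libraries (2.21% to 2.28%). All these shares are as deposited, and the GC and length correction was not applied to them. It took the combination difference of GAPDH, the most abundant enzyme, from 0.64 to 0.039, and that of PGK1 from 1.28 to 1.94.

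Lactate dehydrogenase interconverts pyruvate and lactate, and its subunit genes parted. LDHA, the subunit that favours lactate and a HIF and MYC target, was at 183, 184 and 179.7 FPKM in the DMSO libraries, 173, 177 and 174 with ceritinib, 236, 228 and 238 with crenolanib and 224, 233 and 231 with both drugs. Crenolanib and the combination lay above the other groups and overlapped each other. LDHA rose by 0.36 with crenolanib and 0.33 with the combination (corrected 0.67), where quantile normalization turned the sign (-0.12). With ceritinib LDHA was at -0.062, not called as deposited but called after the correction (-0.087, adjusted p = 0.00235). LDHB, the subunit of oxidative tissues, was at 227, 226 and 229.6 FPKM in DMSO, 235, 230.1 and 232 in the ceritinib libraries, 218, 209 and 214 in the crenolanib libraries and 85.3, 87.2 and 87.9 in the combination libraries. All combination libraries lay at or below 87.9 FPKM, and the difference was -1.38 ± 0.023 (SE, adjusted p = 1.62e-13, corrected -1.32). The fall with crenolanib was small (-0.090) and not called after the correction (adjusted p = 0.0699). The crenolanib call of LDHB was lost without crenolanib replicate 2, with the difference at -0.074 (adjusted p = 0.0536).

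Lactate leaves through monocarboxylate transporters, and these parted as well. SLC16A1, which carries lactate in either direction and is a MYC target, was at 62.1, 60.5 and 62.5 FPKM in the DMSO libraries, 62.4, 65.0 and 65.7 with ceritinib, 66.0, 62.1 and 64.2 with crenolanib and 25.0, 25.7 and 26.5 with both drugs. It overlapped DMSO with each single drug and fell with the combination (-1.23 ± 0.032 SE, adjusted p = 2.62e-12, corrected -0.62). SLC16A3, the HIF-induced lactate exporter, was at 1.58, 1.64 and 1.72 FPKM in DMSO, 1.99, 1.43 and 1.65 in the ceritinib libraries, 1.60, 1.75 and 1.74 in the crenolanib libraries and 4.43, 3.65 and 3.61 in the combination libraries. It was low in all groups, overlapped DMSO with each single drug, and rose with the combination (0.88, corrected 0.49).

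Ratios of partner genes within a library do not depend on how that library was scaled. The ratio of LDHA to LDHB was 0.801 ± 0.0162 in DMSO, 0.751 ± 0.0155 with ceritinib, 1.09 ± 0.0136 with crenolanib and 2.64 ± 0.0274 with the combination, and no group overlapped DMSO. These partners have similar GC (44.0% and 46.5%), and the log2 ratio of the combination to DMSO was 1.72 as deposited and 1.99 corrected. The ratio of SLC16A3 to SLC16A1 went from 0.0267 ± 0.00113 to 0.152 ± 0.0222 (log2 ratio 2.50, corrected 1.11), with ceritinib at 0.0263 ± 0.00510 and crenolanib at 0.0265 ± 0.00200, both overlapping DMSO. PFKL to PFKM went from 0.650 ± 0.0116 to 1.96 ± 0.0706 with the combination (log2 ratio 1.59, corrected 1.17) and 0.863 ± 0.0778 with crenolanib, while ceritinib overlapped DMSO (0.647 ± 0.0195). HK1 to HK2 went from 2.33 ± 0.0945 to 4.11 ± 0.137 with the combination (log2 ratio 0.82, corrected 0.54), and PFKFB3 to PFKFB4 from 3.09 ± 0.149 to 1.38 ± 0.0585 (log2 ratio -1.16, corrected -0.82). SLC2A1 to SLC2A3 went from 5.11 ± 0.158 to 8.94 ± 0.333, but only by 0.25 on the log2 scale after the correction (0.81 before). In all, 9 ratios were compared with DMSO in 3 treatments each. An exact two-sided permutation test of 3 against 3 libraries cannot go below p = 0.1, so none of the 27 can pass.

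**Figure D2:**
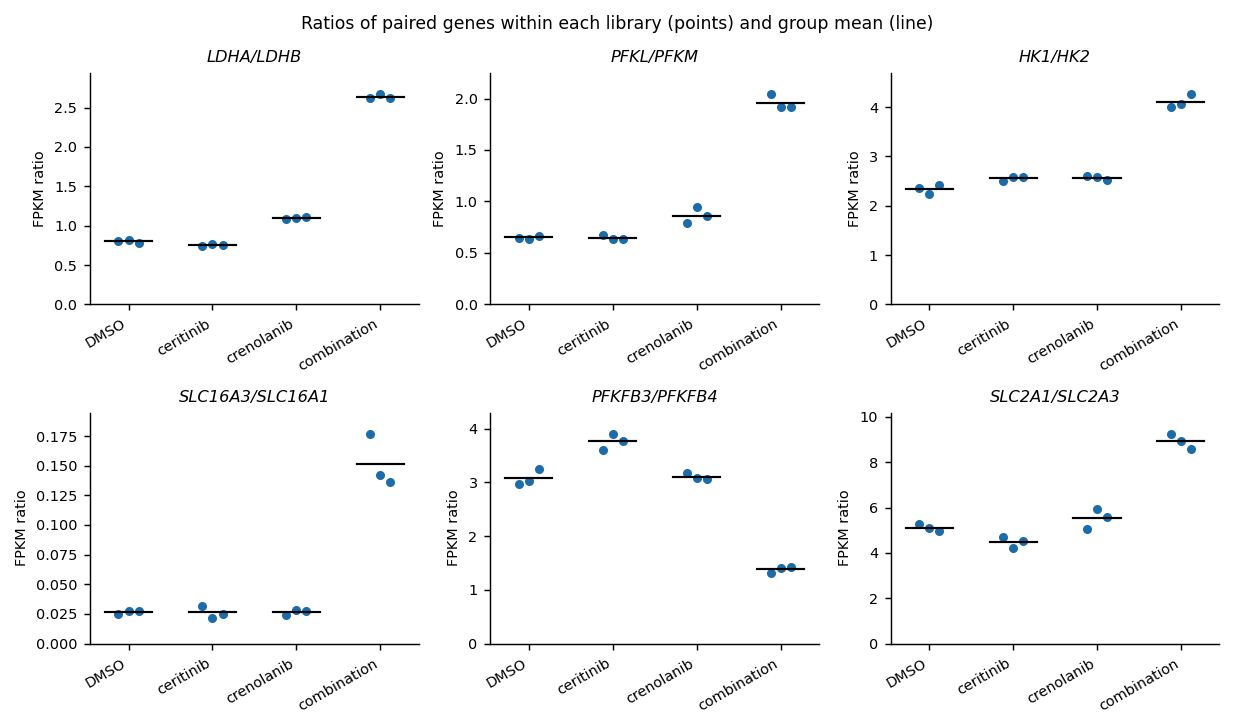
FPKM ratios of 6 gene pairs (linear axis from 0) in each library; points are libraries and lines are group means (n = 3). LDHA/LDHB, PFKL/PFKM, HK1/HK2, SLC16A3/SLC16A1 and SLC2A1/SLC2A3 were highest and PFKFB3/PFKFB4 lowest in all 3 combination libraries.

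Among the hypoxia genes, those of mitochondria and stress are given first. BNIP3, a mitophagy receptor and a HIF target, was at 9.11, 9.24 and 8.78 FPKM in the DMSO libraries, 7.03, 7.08 and 6.66 with ceritinib, 13.2, 13.2 and 13.3 with crenolanib and 28.7, 29.7 and 29.9 with both drugs. Its 4 groups did not overlap, with ceritinib lowest, then DMSO, crenolanib and the combination. This separation was not particular to BNIP3, and PGK1 and PKM, for example, showed it in the same order. The differences from DMSO were -0.34 ± 0.032 (SE, adjusted p = 6.3e-06), 0.50 ± 0.032 (SE, adjusted p = 6.27e-07) and 1.60 ± 0.032 (SE, adjusted p = 4.37e-13) in the order ceritinib, crenolanib and combination, the latter hardly altered by the correction (1.54). Named BNIP3 pseudogenes summed to at most 11.5% of BNIP3 FPKM, and reads may be split with them. BNIP3L, the related mitophagy receptor, was at 13.4, 13.8 and 12.5 FPKM in DMSO, 8.59, 9.64 and 8.88 in the ceritinib libraries, 13.4, 12.5 and 11.8 in the crenolanib libraries and 8.18, 8.66 and 8.24 in the combination libraries. BNIP3L fell with ceritinib (-0.50) and overlapped DMSO with crenolanib. With the combination it fell as deposited (-0.60) but was higher after the correction (0.12, adjusted p = 0.0261), so its direction there depends on the processing.

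NDRG1, a stress-response gene induced by hypoxia, was at 4.54, 4.48 and 4.59 FPKM in the DMSO libraries, 3.0, 2.75 and 2.63 with ceritinib, 3.91, 3.92 and 4.42 with crenolanib and 10.3, 9.47 and 9.56 with both drugs. The ceritinib libraries were the lowest and the combination libraries the highest, with differences of -0.55 ± 0.050 (SE, adjusted p = 6.3e-06) and 0.96 ± 0.050 (SE, adjusted p = 1.36e-09, corrected 0.96), and -0.13 for crenolanib, which was not called. PDK1, the kinase that shuts pyruvate dehydrogenase, lay between 2.0 and 2.80 FPKM over the 12 libraries. It fell with ceritinib (-0.17), rose with crenolanib (0.15) and overlapped DMSO with the combination (-0.019). PDK1 has the longest transcript of the members tested (14193 bases) and a GC content of 39.8%, and after the correction its combination difference was 1.10 (adjusted p = 4.86e-11).

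Secreted factors and pH control went several ways. VEGFA, the growth factor for blood vessels, was at 5.62, 5.61 and 5.69 FPKM in DMSO, 4.25, 4.34 and 4.27 in the ceritinib libraries, 4.99, 5.33 and 5.25 in the crenolanib libraries and 6.93, 7.17 and 7.24 in the combination libraries. VEGFA fell with ceritinib (-0.33), slightly with crenolanib (-0.10), and rose with the combination (0.29, corrected 0.49). The crenolanib call of VEGFA was lost without any 1 of DMSO replicates 1, 2 and 3, crenolanib replicates 1 and 3 and ceritinib replicates 1, 2 and 3, with the difference between -0.11 and -0.079 (adjusted p from 0.051 to 0.131). ADM, the vasodilator peptide adrenomedullin, was at 4.07, 4.37 and 3.68 FPKM in the DMSO libraries, 5.57, 5.77 and 4.99 with ceritinib, 6.31, 5.83 and 6.78 with crenolanib and 9.53, 9.69 and 9.52 with both drugs. As deposited, ADM alone among the hypoxia genes tested rose in all 3 comparisons with DMSO, by 0.35 ± 0.061 (SE, adjusted p = 0.00083) with ceritinib, 0.54 with crenolanib and 1.07 with the combination (corrected 0.48). CA12, a membrane carbonic anhydrase, was at 1.99, 1.94 and 2.05 FPKM in DMSO, 1.89, 2.02 and 1.72 in the ceritinib libraries, 1.97, 2.01 and 2.12 in the crenolanib libraries and 0.826, 0.818 and 0.826 in the combination libraries. CA12 overlapped DMSO with each single drug and fell with the combination (-0.71, corrected -0.41).

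Collagen prolyl hydroxylases supply the matrix and are HIF targets. P4HA1 lay between 13.9 and 18.4 FPKM, rose with crenolanib (0.24) and overlapped DMSO with the combination (-0.0053, corrected 0.57, adjusted p = 1.15e-09). P4HA2 was at 1.85, 1.86 and 1.78 FPKM in the DMSO libraries, 1.68, 1.47 and 1.60 with ceritinib, 2.05, 2.19 and 2.07 with crenolanib and 4.79, 4.27 and 4.84 with both drugs. P4HA2 rose with the combination (0.99, corrected 1.11) and was not called with crenolanib (0.13). With ceritinib it stood at -0.13, not called as deposited but called after the correction (-0.15, adjusted p = 0.0311).

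The HIF1A mRNA itself was at 41.4, 39.4 and 39.9 FPKM in DMSO, 37.8, 39.3 and 39.6 in the ceritinib libraries, 42.4, 39.8 and 41.2 in the crenolanib libraries and 11, 11.9 and 11 in the combination libraries. Both single drugs overlapped DMSO, and the combination libraries were about 0.280 times the DMSO mean, a difference of -1.75 ± 0.037 (SE, adjusted p = 6.73e-13) as deposited and -0.99 corrected; HIF1A had the least GC of the members tested (36.4%). EGLN1, the main hydroxylase that marks HIF1A protein for destruction, lay between 4.51 and 6.40 FPKM. It rose slightly with ceritinib (0.16) and crenolanib (0.15), and with the combination it fell as deposited (-0.19) and was higher after the correction (0.55). The crenolanib call of EGLN1 was lost without any 1 of DMSO replicates 1 and 2 and crenolanib replicates 1 and 2, with the difference between 0.13 and 0.15 (adjusted p from 0.0568 to 0.07).

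KDM3A, MXI1 and BHLHE40, regulators of chromatin or transcription, fell with ceritinib. KDM3A, a histone demethylase, was at 2.73, 2.84 and 2.81 FPKM in the DMSO libraries, 2.24, 2.46 and 2.38 with ceritinib, 2.92, 2.81 and 2.78 with crenolanib and 1.49, 1.61 and 1.85 with both drugs. KDM3A fell with ceritinib (-0.18) and, as deposited, with the combination (-0.52), where the correction turned the sign (0.39). The ceritinib call of KDM3A was lost without any 1 of DMSO replicate 2 and ceritinib replicate 1, with the difference between -0.17 and -0.15 (adjusted p from 0.0544 to 0.0677). MXI1, an antagonist of MYC, was at 3.31, 3.26 and 3.41 FPKM in DMSO, 2.34, 2.32 and 2.31 in the ceritinib libraries, 2.70, 2.84 and 2.87 in the crenolanib libraries and 1.31, 1.86 and 1.69 in the combination libraries. MXI1 fell with ceritinib (-0.38) and the combination (-0.73, corrected -0.24). With crenolanib it was at -0.18, not called as deposited but called after the correction (adjusted p = 0.041). BHLHE40, a repressor that binds E-boxes, was at 31.8, 31.5 and 30.8 FPKM in the DMSO libraries, 28.7, 29.9 and 28.7 with ceritinib, 29.1, 30.5 and 30.2 with crenolanib and 58.2, 55.5 and 55.4 with both drugs. BHLHE40 rose with the combination (0.82, corrected 0.78) and fell slightly with ceritinib (-0.11). The ceritinib call of BHLHE40 was lost without any 1 of DMSO replicate 1 and ceritinib replicates 1 and 3, with the difference between -0.096 and -0.094 (adjusted p from 0.0571 to 0.0577).

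The direct comparison asks where the drugs differ at the same dose and time. Against crenolanib, ceritinib gave lower levels of 14 of 23 glycolytic genes and higher levels of 2 (median -0.18), and lower levels of 10 of 14 hypoxia genes and higher levels of 0 (median -0.21). Over all genes, 15.4% were called lower and 19.4% higher (median 0.018). The greatest differences were in BNIP3 (-0.85 ± 0.032 SE, adjusted p = 4.42e-09), ALDOC (-0.45), BNIP3L (-0.44), NDRG1 (-0.42) and LDHA (-0.42), all lower with ceritinib. The glycolytic genes that were higher with ceritinib were PFKM (0.27) and LDHB (0.12). Among the genes not called were GPI (0.0095, SE 0.030), SLC2A3 (-0.0012, SE 0.036), SLC16A1 (0.0060, SE 0.032) and HIF1A (-0.078, SE 0.037). The calls of ADM (-0.18) and MXI1 (-0.20) were not stable. The drug-to-drug call of ADM was lost without any 1 of DMSO replicate 1, crenolanib replicates 1 and 3 and ceritinib replicates 1 and 3, with the difference between -0.20 and -0.13 (adjusted p from 0.0501 to 0.15). The drug-to-drug call of MXI1 was lost without any 1 of crenolanib replicates 2 and 3 and ceritinib replicates 1, 2 and 3, with the difference between -0.20 and -0.18 (adjusted p from 0.0687 to 0.0898).

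**Figure D3:**
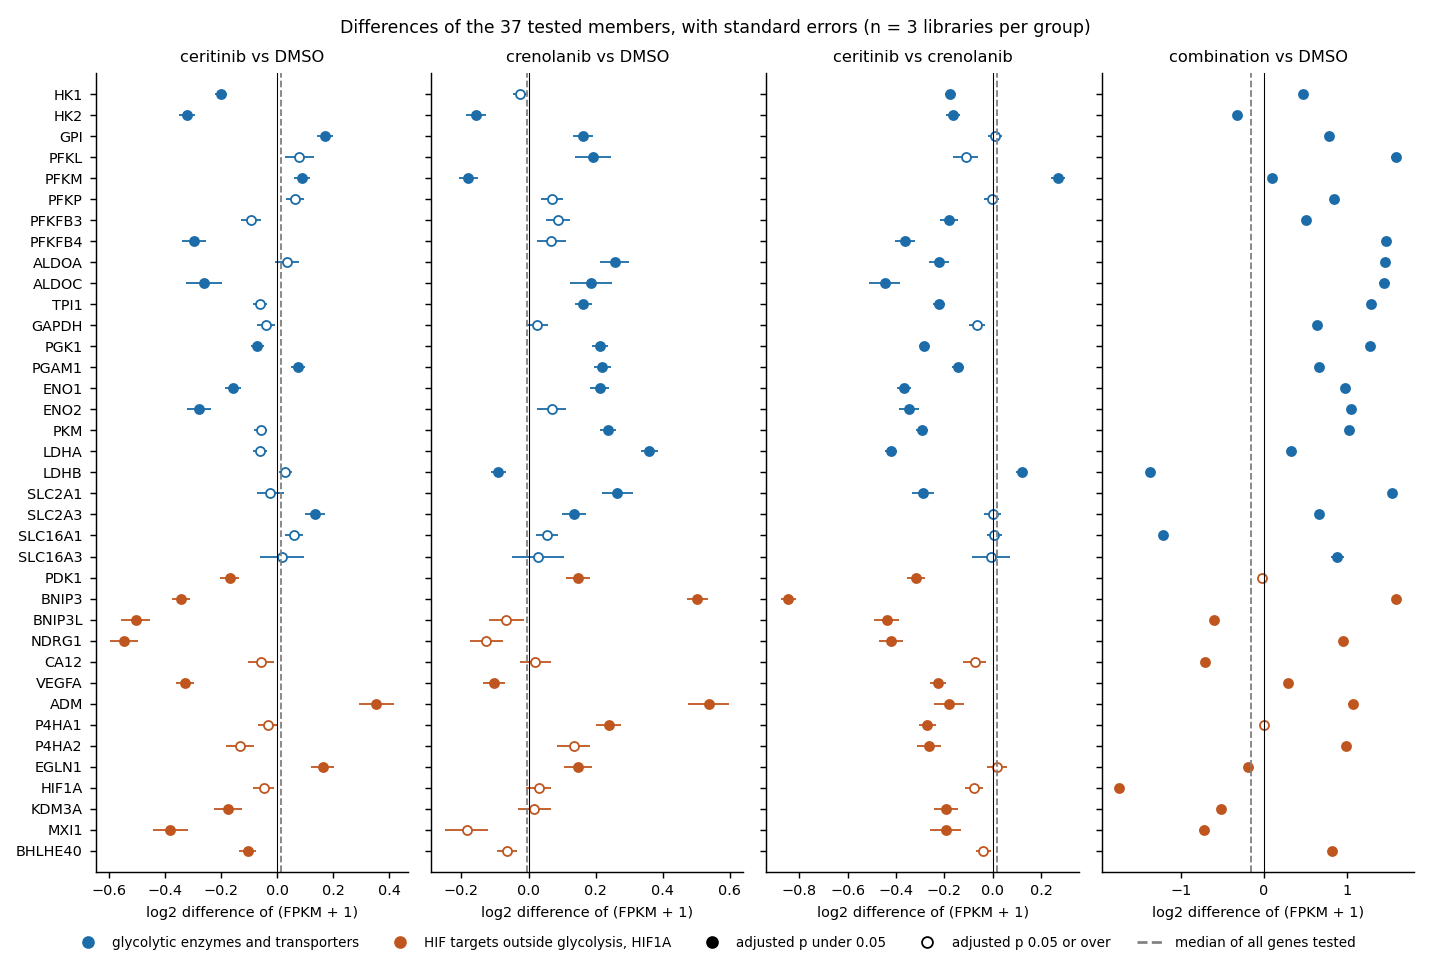
Log2 differences of the 37 tested members in 4 comparisons, each panel with its own scale; bars are standard errors, filled points have an adjusted p under 0.05, and the dashed line is the median of all genes tested. Ceritinib against crenolanib lies below 0 for most members of both classes, and the combination panel spans from HIF1A (-1.75) to BNIP3 (1.60).

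With the combination the classes differed in balance as deposited. Of 23 glycolytic genes 20 rose and 3 fell (HK2, LDHB and SLC16A1), with a median of 0.85, while of 14 hypoxia genes 6 rose and 6 fell, with a median of -0.012. Over all genes 36.8% were called higher and 50.9% lower, with a median of -0.16. The 2 hypoxia genes that were not called, PDK1 and P4HA1, overlapped DMSO. Relative to that median, 20 of 23 glycolytic and 8 of 14 hypoxia genes lay above it. After the correction the hypoxia genes were 11 higher and 3 lower (median 0.52) and the glycolytic genes 19 higher and 3 lower (median 0.74), against 39.5% and 40.8% of all genes. Most genes of both classes were thus higher after the correction, and the hypoxia genes that fell in both were CA12, HIF1A and MXI1. Median-of-ratios scaling, which puts the median of all genes at 0.060, gave 8 hypoxia genes higher and 5 lower, with 53.1% of all calls higher against 42.0% as deposited.

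**Figure D4:**
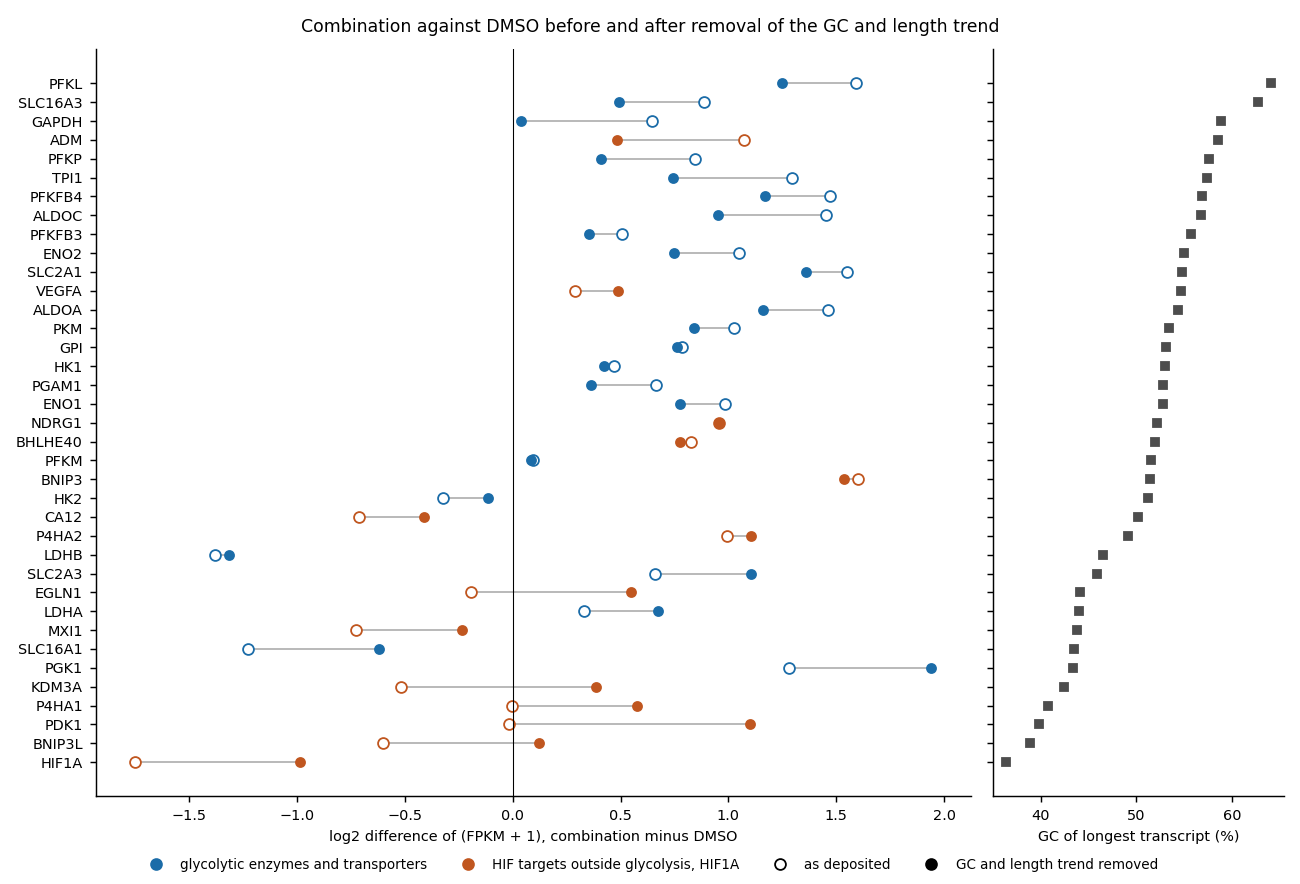
Left, log2 difference between the combination and DMSO for the 37 tested members as deposited (open) and with the GC and length trend removed (filled); right, GC percent of the longest transcript, by which genes are ordered. Genes of low GC at the bottom move to the right, and BNIP3L, PDK1, P4HA1, KDM3A and EGLN1 end above 0, while GAPDH ends near 0 (0.039).

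Most glycolytic genes were also higher with the combination than with either drug alone. Against ceritinib alone, the combination had 19 glycolytic genes higher and 2 lower, and 7 hypoxia genes higher and 5 lower (35.9% and 51.3% of all genes). Against crenolanib alone the counts were 19 and 3 for glycolytic genes and 6 and 8 for hypoxia genes (37.4% and 50.1% of all genes). After the correction the hypoxia counts were 11 and 2 against ceritinib (39.4% and 39.7% of all genes) and 10 and 2 against crenolanib (39.3% and 39.7%). With median-of-ratios scaling the hypoxia split against ceritinib was 9 and 4, with quantile normalization 7 and 3, and scaled to nuclear genes 6 and 7. Of all calls in that comparison, 41.2% were higher as deposited and 53.6%, 51.0% and 30.7% under these scalings. In the test of additivity, the combination exceeded the sum of the single-drug changes in 20 glycolytic genes and fell short in 2, and in 5 and 5 hypoxia genes (33.8% and 47.7% of all genes); the hypoxia counts became 11 and 3 after the correction (against 35.2% and 35.0% of all genes), 8 and 4 with median-of-ratios scaling, 7 and 4 with quantile normalization, and 5 and 8 scaled to nuclear genes. Of all interaction calls, 41.5% were higher as deposited, and 53.0%, 51.5% and 29.8% under the last 3.

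Among other genes of oxygen sensing, the second HIF alpha subunit rose in all 3 comparisons with DMSO. EPAS1 (HIF-2 alpha) had a mean of 4.15 FPKM in DMSO, 11.7 with ceritinib (1.30 ± 0.036 SE, adjusted p = 2.67e-10), 5.80 with crenolanib (0.40) and 12 with both drugs (1.34, corrected 1.41). Of 10 tested genes of the 11 in this list, EPAS1 alone passed with ceritinib, EPAS1 and the ubiquitin ligase recognition gene VHL (-0.10) with crenolanib, and 4 rose and 4 fell with the combination, where 36.8% and 50.9% of all genes were called higher and lower. After the correction 7 were higher and 1 lower with the combination, against 39.5% and 40.8% of all genes, so the even split depends on the processing. The ligase scaffold CUL2 fell with the combination (-1.69, corrected -0.91) and the adaptor ELOB rose (1.03, corrected 0.27).

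Among 30 other reported HIF targets, 28 were tested. With ceritinib 8 rose and 5 fell, with crenolanib 9 rose and 5 fell, and with the combination 16 rose and 10 fell (22 and 4 corrected). The higher and lower shares of all genes were 20.3% and 16.3% for ceritinib, 13.0% and 13.0% for crenolanib, and 36.8% and 50.9% for the combination (39.5% and 40.8% corrected). DDIT4, an mTORC1 inhibitor, fell with crenolanib (-0.65) and rose with the combination from 22.3 to 117 FPKM (2.33, corrected 1.74). The lipoprotein receptor VLDLR fell with ceritinib (-0.88) and the hormone STC1 rose (0.58), the transferrin receptor TFRC rose with crenolanib (0.67), and the lysyl oxidase LOXL2 rose with the combination (1.00, corrected 0.63).

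Pathways that branch from glycolysis were counted in the same way, and their counts are to be read against those same shares: 20.3% and 16.3% of all genes higher and lower with ceritinib, 13.0% and 13.0% with crenolanib and 36.8% and 50.9% with the combination. For pyruvate entry into mitochondria, 8 of 12 tested genes rose with ceritinib and 0 fell, among them the phosphatase PDP1 that switches pyruvate dehydrogenase on (0.41) and the complex subunits PDHX (0.24) and DLAT (0.22). With crenolanib 1 rose, again PDP1 (0.39), and 1 fell, the kinase PDK2 (-0.19). With the combination 5 rose and 6 fell (median -0.11), the latter including the subunits DLD (-1.40, corrected -0.67) and DLAT (-0.89, corrected -0.27). After the correction 7 genes of this list were higher and 4 lower (median 0.33), against 39.5% and 40.8% of all genes. In the pentose phosphate pathway, which makes NADPH and ribose, 0 of 7 genes passed with ceritinib and 1 with crenolanib (TKT, 0.18), and 5 rose and 2 fell with the combination, such as PGD (1.22, corrected 0.92), TKT (1.25, corrected 1.26) and TALDO1 (0.90, corrected 0.35). For ceritinib the 7 differences had adjusted p-values from 0.0723 to 0.886 in limma, and 1 had an unadjusted p under 0.05.

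Of 28 other glycolytic isozymes, side enzymes and transporters, 13 were tested. HKDC1, a further hexokinase, rose with ceritinib from 1.80 to 3.69 FPKM (0.74 ± 0.052 SE, adjusted p = 5.73e-07) and fell with crenolanib to 1.2 (-0.35), so the drugs differed by 1.09 for this gene. PGM1, which links glycogen to glycolysis, rose with crenolanib (0.31) and with the combination from 12.3 to 45.2 FPKM (1.79, corrected 1.91). BSG, the chaperone of the lactate transporters, rose in all 3 comparisons with DMSO (0.16, 0.22 and 1.25, the latter corrected 0.58), and EMB, a related chaperone, fell with the combination (-1.29, corrected -0.49).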

How the data were processed

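Gene-level RNA sequencing values of 12 libraries of 143B cells were used, 3 biological replicates per group. The deposited values are FPKM, per the file headers, 1 per gene symbol. Per the submitters' processing notes, FastQC 0.11.2, STAR, StringTie and hg38 were used; how FPKM was scaled is not given in the sources used here. Blank symbols (1 entry) were left out. Depth was estimated from the steps of the low FPKM values, so it is approximate, and intervals from read counts were not computed.

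Genes that reached 1 FPKM in 3 or more libraries (11944) were tested with limma 3.58.1 under R 4.3.3, on values transformed as log2(FPKM + 1), with 1 mean per group, a variance trend and 8 residual degrees of freedom, with Benjamini-Hochberg adjustment over all genes and a threshold of 0.05. GC content and length were those of the longest GENCODE 29 transcript of each gene, and were removed as natural splines of 5 degrees of freedom. Where another transcript is expressed, the correction uses the wrong GC and length, and this was not tested. Ratios were tested by exact permutation in SciPy 1.17.1. The fit and the correction were run on simulated data with few changed genes and a trend unrelated to those changes. That setting differs from the combination, where most genes were called, and so does not test the correction there. The deposited FPKM gave no counts, so no count test was run.

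The 40 members and the other pathway lists were chosen with earlier results of these data known. Values in every library are printed for members that passed against DMSO with a log2 difference of at least 0.3 in size and for HK2, PFKFB3, LDHA, SLC2A1 and HIF1A. From each other list, up to 3 genes per comparison with the smallest adjusted p are named, except 1 gene that is not reported here. Alternatives varied the pseudocount (0.1 and 0.01), the filter (none, or 5 FPKM), the scaling (TPM, median of ratios, quantile, nuclear genes), the GC and length correction, a replicate block, the groups fitted, robust variance and each library left out.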

Additional observations from a re-analysis of the deposited data

Results flagged for a closer look

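The change with both drugs differed from the sum of the single-drug changes in 32 of the 37 members tested, by the interaction term of the fit across all genes (limma, adjusted p under 0.05, n = 3 per group). Of all 11944 genes, 33.8% were called higher and 47.7% lower by the same test, so the members' count is near that of any gene. Values are log2 differences as deposited, with those after the correction beside them.

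Glucose handling and the upper steps exceeded the sum in SLC2A1 and its kin: SLC2A1 (1.31, corrected 1.12), SLC2A3 (0.39, corrected 0.84), HK1 (0.70, corrected 0.65), HK2 (0.16, corrected 0.38) and GPI (0.45, corrected 0.43). Of these, HK2 turned sign when libraries were scaled to nuclear genes (-0.10). The phosphofructokinase genes and their activators did so too: PFKL (1.32, corrected 1.04), PFKM (0.18, corrected 0.18), PFKP (0.71, corrected 0.29), PFKFB3 (0.51, corrected 0.36) and PFKFB4 (1.70, corrected 1.41), with PFKM at -0.072 when scaled to nuclear genes.

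The middle and lower steps were ALDOA (1.17, corrected 0.88), ALDOC (1.53, corrected 1.02), TPI1 (1.19, corrected 0.63), GAPDH (0.66, corrected 0.051), PGK1 (1.14, corrected 1.80), PGAM1 (0.37, corrected 0.054), ENO1 (0.93, corrected 0.73), ENO2 (1.26, corrected 0.97) and PKM (0.85, corrected 0.68). GAPDH and PGAM1 did not pass after the correction, and PGAM1 turned sign with quantile normalization (-0.20). For lactate, the values were LDHB (-1.32, corrected -1.27), SLC16A1 (-1.34, corrected -0.74) and SLC16A3 (0.84, corrected 0.48).

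Of the hypoxia genes, those above the sum were BNIP3 (1.44, corrected 1.39), NDRG1 (1.63, corrected 1.63), VEGFA (0.72, corrected 0.95), P4HA2 (0.99, corrected 1.12) and BHLHE40 (1.00, corrected 0.95). Those below the sum were CA12 (-0.68, corrected -0.35), HIF1A (-1.73, corrected -0.99), P4HA1 (-0.21, corrected 0.36), EGLN1 (-0.50, corrected 0.26) and KDM3A (-0.36, corrected 0.57), and P4HA1, EGLN1 and KDM3A turned sign with the correction.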

How the results depend on the processing

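The number of members called, with both directions counted together, stayed within 1.5 times the reported count except in 4 cases. With a filter of at least 5 FPKM, which tests fewer genes, the hypoxia count was 6 for ceritinib against crenolanib, 7 for the combination against ceritinib and 9 for the combination against crenolanib. Without DMSO replicate 1 the glycolytic count for ceritinib was 7. The split by direction moved more in places. For the combination against DMSO, hypoxia genes went from 6 higher and 6 lower to 11 and 3 with the GC and length correction. For ceritinib, glycolytic genes went from 4 higher and 7 lower to 1 and 12 on the TPM scale. Leaving out each library in turn gave glycolytic counts of 7 to 12 for ceritinib, 12 to 15 for crenolanib, 16 to 17 for ceritinib against crenolanib, 23 for the combination, 21 for it against ceritinib, 22 for it against crenolanib and 22 for the interaction. The hypoxia counts were 9 to 11, 4 to 8, 8 to 10, 12, 12 to 13, 14 and 10 to 11 in the same order. Of 135 called gene values, 121 kept their call each time.

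No called member turned sign in the single-drug comparisons or between the drugs under any alternative run. For the combination against DMSO, the correction for GC and length, with or without the replicate block, turned PDK1 (1.10), BNIP3L (0.12), P4HA1 (0.57), EGLN1 (0.55) and KDM3A (0.39). Median-of-ratios scaling turned PDK1 (0.18), P4HA1 (0.26) and EGLN1 (0.045), quantile normalization PDK1 (0.30), EGLN1 (0.042) and LDHA (-0.12), scaling to nuclear genes PFKM (-0.12), and TPM PFKM (-0.058). For the interaction, the correction, with or without the block, turned BNIP3L (0.67), ADM (-0.41), P4HA1 (0.36), EGLN1 (0.26), KDM3A (0.57) and MXI1 (0.33). Median-of-ratios scaling turned BNIP3L (0.21) and P4HA1 (0.042), quantile normalization PGAM1 (-0.20) and LDHA (-0.49), and nuclear scaling HK2 (-0.10), PFKM (-0.072), LDHA (-0.24) and PDK1 (-0.19). The cause was not tested. A further 57 values differed in sign where neither fit called them.

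The replicate numbers did not pair the libraries: over 18 pairs of same-numbered libraries the deviations from group means had a median correlation of -0.00115 (-0.0833 to 0.165), and 5 of 12 libraries correlated best with their own number. With the replicate block 10 glycolytic genes were called for ceritinib in place of 11, 5 hypoxia genes for crenolanib in place of 6 and 9 between the drugs in place of 10, as PGK1, VEGFA and ADM were not called. The fit of only the groups compared was not run for the interaction, which uses all 4 groups. CA9, EGLN3 and ANKRD37 were left out by the filter of 1 FPKM; with no filter all 17 hypoxia genes were fitted, and 7 were higher and 7 lower with the combination.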
